A study of Mus musculus with 24 samples.

Results

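Kidney macrophage barcodes that were found in renal M2 macrophages and stayed below a low bound in every other sorted population of the same mouse numbered 158 of 327974 distinct barcodes in the data. A barcode here is a random DNA sequence of 52 bases that a lentivirus inserts into the genome of a blood stem cell and that all progeny of that cell inherit. Barcodes were chosen in each mouse by their share of a library's reads, as those with at least 0.02% in renal M2 macrophages and less than 0.01% in renal M1 macrophages, cardiac Ccr2hi and Ccr2lo macrophages, monocytes, neutrophils, B cells and T cells. Mouse 1 held 60 of them, mouse 2 held 31 and mouse 3 held 67. Because 2 sequences met the rule in both mouse 1 and mouse 2, the 158 members were 156 different sequences. The shares in all 8 populations of a mouse chose the members, so their level in M2 macrophages and their low level in the same mouse's other populations are descriptions and were not tested.

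The study sorted 8 populations from each of 3 mice, renal M2 and renal M1 macrophages, cardiac Ccr2hi and Ccr2lo macrophages, and monocytes, neutrophils, B cells and T cells, with 1 library per population and mouse. All 24 libraries came from C57BL/6J males that were 5 weeks old when they received 9 Gy to the whole body and GFP+LSK cells, together with CD45.2+ rescue cells. The LSK cells had been infected with the barcoding lentivirus pBC008 after 5 days in culture and sorted 4 days later, and organs and blood were collected 2 months after the transplant. No group received a different treatment, so the only contrasts are between populations and between mice. The sort gates for M1 and M2 macrophages and the numbers of cells collected are not in the labels used here, and barcode reads hold no marker gene against which the names M1 and M2 could be checked.

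Part of the tissue macrophages of heart and kidney is seeded before birth. After irradiation, tissue macrophages can be replaced in part by progeny of transplanted cells. Monocytes leave the marrow through the chemokine receptor Ccr2, and a macrophage population that is steadily renewed from circulating monocytes carries the barcodes that monocytes carry. M1 and M2 are names for macrophages with a more inflammatory and a more repair-associated state.

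The 5 members with the highest share of M2 reads in each mouse are printed because the sizes and traces below are described on them. Capitals mark bases that break the alternation of the barcode design, in which G or C stands at odd and A or T at even positions, counted from 1 at the 5′ end. The barcodes are synthetic and have no position in a genome.
Mouse 1 barcode A: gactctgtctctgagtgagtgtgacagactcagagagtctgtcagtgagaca
Mouse 1 barcode B: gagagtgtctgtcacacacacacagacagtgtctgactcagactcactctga
Mouse 1 barcode C: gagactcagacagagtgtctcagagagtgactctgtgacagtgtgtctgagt
Mouse 1 barcode D: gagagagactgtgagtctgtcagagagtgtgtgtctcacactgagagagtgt
Mouse 1 barcode E: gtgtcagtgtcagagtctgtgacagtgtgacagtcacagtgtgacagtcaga
Mouse 2 barcode A: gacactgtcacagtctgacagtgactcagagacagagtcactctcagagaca
Mouse 2 barcode B: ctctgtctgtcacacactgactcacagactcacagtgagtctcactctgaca
Mouse 2 barcode C: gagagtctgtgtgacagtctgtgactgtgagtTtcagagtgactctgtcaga
Mouse 2 barcode D: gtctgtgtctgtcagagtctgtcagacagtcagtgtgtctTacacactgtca
Mouse 2 barcode E: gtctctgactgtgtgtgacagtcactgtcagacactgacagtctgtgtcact
Mouse 3 barcode A: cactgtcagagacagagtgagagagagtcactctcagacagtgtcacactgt
Mouse 3 barcode B: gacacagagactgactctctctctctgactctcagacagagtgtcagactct
Mouse 3 barcode C: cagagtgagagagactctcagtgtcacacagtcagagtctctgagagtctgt
Mouse 3 barcode D: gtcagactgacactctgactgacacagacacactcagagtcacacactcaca
Mouse 3 barcode E: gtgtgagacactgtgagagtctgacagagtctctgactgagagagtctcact

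The restricted barcodes were a small and low-abundance part of the M2 repertoire. In mouse 1 they made up 6.56% of the 915 barcodes that reached 0.02% of M2 reads, in mouse 2 they made up 4.84% of 641, and in mouse 3 they made up 8.04% of 833, or 6.61% of 2389 over the 3 mice. Their number averaged 52.7 ± 19.1 per mouse (SD, n = 3). Together they held 2.10% of the M2 reads of mouse 1, 1.04% of those of mouse 2 and 2.26% of those of mouse 3, a mean of 1.80% ± 0.663 (SD, n = 3). Mouse 2 was lowest in number, in percentage and in share of reads, and its M2 library was the deepest with 15745444 reads. With TMM scaling mouse 3 was lowest in number, with 38, 32 and 30 members in mice 1, 2 and 3, and in share of reads, with 1.14%, 1.08% and 0.767%. M2 libraries held 11462466 to 15745444 reads, against at most 13751924 in the other populations and at least 6808221 in any library.

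Most members lay close to the lower bound. The median member held 0.0269% of M2 reads in mouse 1, 0.0292% in mouse 2 and 0.02999% in mouse 3, which corresponded to 3950, 4591 and 3438 reads. Of the 158 members 89 were under 0.03%, 47 lay between 0.03% and 0.05%, 20 between 0.05% and 0.1%, and 2 at 0.1% or more. The other barcodes at 0.02% or more of M2 reads were larger, with medians of 0.0501%, 0.0555% and 0.0559% in mice 1, 2 and 3 and a highest value of 7.79%, in mouse 2. The 5 leading members held 22.7% of the member reads of mouse 1, 34.3% of those of mouse 2 and 15.7% of those of mouse 3, of 60, 31 and 67 members.

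Small M2 barcodes met the rule more often than large ones. Among the 1173 barcodes between 0.02% and 0.05% of M2 reads 11.6% were members, among the 650 between 0.05% and 0.1% it was 3.08%, and among the 334 between 0.1% and 0.2% it was 0.599%. None of the 232 barcodes at 0.2% or more was a member. The percentage was lower at each of these steps in mice 1 and 2, least so from the second to the third step in mouse 2, where 2 of 164 and 1 of 94 barcodes were members, or 1.22% and 1.06%. In mouse 3 it was 14.5% and 3.86% in the first 2 steps and 0 of 127 barcodes in the third. A fixed upper bound elsewhere can let a small barcode stay below it more easily, and the part of the rule in this trend was not tested.

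Few members were uncertain from counting alone. The smallest member of mouse 1 held 0.0206% of M2 reads, that of mouse 2 held 0.0201% and that of mouse 3 held 0.0202%, while the largest barcode just outside that met the other bounds held 0.0198%, 0.0198% and 0.01998% in the 3 mice. The 95% Wilson interval of the M2 share included 0.02% for 9 members, and that of a share elsewhere included 0.01% for 8. At the upper bound, the member with the highest share elsewhere held 0.00997% in Ccr2lo macrophages of mouse 1, 0.00928% in Ccr2lo macrophages of mouse 2 and 0.00983% in Ccr2hi macrophages of mouse 3. The barcodes nearest to it on the other side held 0.0103%, 0.0101% and 0.0102%, in Ccr2lo macrophages of mice 1 and 2 and in M1 macrophages of mouse 3. Between 0.01% and 0.02% of M2 reads, with the other bounds met, lay another 127, 82 and 112 barcodes in mice 1, 2 and 3. The reads come from PCR without molecular identifiers, so intervals cover counting error only, and the shares count copies after PCR, not cells. Fewer cells with a barcode and fewer amplified copies per cell cannot be told apart.

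The levels of the members elsewhere fell into background reads and clear traces. Of the 1106 values of the 158 members in the 7 other populations of their mouse, 290 were 0 and 602 were 1 to 9 reads. Another 181 values, 16.4%, were at 0.001% or more, which is 69 to 138 reads depending on the library, and 161 of these were at 0.003% or more. Only 33 values lay between 10 reads and 0.001%, so that 0.001%, a bound chosen after the values were seen, separates the 2 kinds. A count of 1 to 9 reads was also what these barcodes had in mice they were not chosen in, where the median was 0 to 3 reads in each of the 24 libraries. A count of 0 in a library of 6808221 reads, the shallowest, allows a share of up to 4.41e-05%.

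Clear traces of the members were found mostly in the heart. In Ccr2lo macrophages 81 of 158 members (51.3%) reached 0.001%, and in Ccr2hi macrophages 71 (44.9%) did. In M1 macrophages, sorted from the same organ, 12 members (7.59%) did, in B cells 10 (6.33%), in T cells 6 (3.80%) and in neutrophils 1 (0.633%). In monocytes 0 of 158 did, and the highest monocyte count of a member was 16 reads. Among all 2389 barcodes at 0.02% or more of M2 reads, members included, 0.001% was reached by 94.5% in Ccr2lo, 93.3% in Ccr2hi, 27.2% in M1 macrophages, 45.8% in B cells, 23.9% in T cells, 21.4% in neutrophils and 22.4% in monocytes. The cardiac libraries were thus the highest for M2 barcodes of any kind. Over the 3 mice they also held the most barcodes at 0.02%, 2456 in Ccr2lo and 2285 in Ccr2hi macrophages, against 894 in B cells, 339 in monocytes, 297 in T cells, 245 in neutrophils and 231 in M1 macrophages, and the part of these numbers in the trace counts was not tested. At least 1 cardiac population held a clear trace of 107 members, 67.7%, against 2334 (97.7%) of all 2389 M2 barcodes at 0.02% or more. The cap at 0.01% holds for the members only. Clear traces in the heart and nowhere else were found for 86 members, and a matching count over all M2 barcodes is not given. Members in M1 macrophages alone numbered 2, and members in blood but not in heart or M1 macrophages numbered 1. These counts have no test, since the rule capped each of the 7 populations at the same 0.01%.

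Summed over the members, traces were highest in the 2 cardiac subsets in each mouse. In Ccr2lo macrophages the members together held 0.206% of the reads of mouse 1, 0.0510% of those of mouse 2 and 0.270% of those of mouse 3. In Ccr2hi macrophages they held 0.196%, 0.123% and 0.109% of the reads of mice 1, 2 and 3. The order of the cardiac subsets differed between mice, with Ccr2hi above Ccr2lo macrophages in mouse 2 and below them in mice 1 and 3. In M1 macrophages the sums were 0.0529%, 0.000427% and 0.0254%, and in mouse 2, where no member exceeded 8 M1 reads, the M1 sum was the lowest of the 7 populations. In B cells the sums were 0.0380%, 0.00720% and 0.0102%, a mean of 0.0184% ± 0.0170 (SD, n = 3). Monocytes held 0.00101%, 0.000518% and 0.000585%, the lowest mean of the 7 populations, 0.000706% ± 0.000269, with neutrophils next at 0.00247% ± 0.00311 and T cells at 0.00923% ± 0.00250 (SD, n = 3 each). Neutrophils owed their 0.00607% in mouse 1 mostly to 1 member with 342 reads, and in mice 2 and 3 they held 0.000653% and 0.000699%.

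The clear traces of the members in Ccr2hi and Ccr2lo macrophages overlapped in part. Both cardiac subsets held a clear trace of 45 members, which was 63.4% of the 71 with a trace in Ccr2hi and 55.6% of the 81 with a trace in Ccr2lo macrophages. Over all M2 barcodes at 0.02% or more it was 2154, or 96.6% of the 2230 with a trace in Ccr2hi and 95.4% of the 2258 with one in Ccr2lo macrophages. The cap at 0.01% holds for the members only. In mouse 2 all 7 members traced in Ccr2lo were also traced in Ccr2hi macrophages, whereas in mouse 3 only 17 of 41 were. By number of populations, 56 members had a clear trace in 1, 41 in 2, 9 in 3 and 4 in 4 of the 7 other populations. Where a member had a clear trace, its highest one was in Ccr2lo macrophages for 61 members, in Ccr2hi macrophages for 40, in M1 macrophages for 6, in B cells for 2 and in T cells for 1. The name restricted therefore holds for the bounds and not for absence: 110 of the 158 members, 69.6%, were seen clearly in at least 1 other population, and 92 had their highest trace between 0.005% and 0.01%.

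The remaining 48 members, 30.4%, had no clear trace in any of the other 7 populations. Mouse 1 held 15 of them, mouse 2 held 12 and mouse 3 held 21. Their reads summed over all 7 libraries ranged from 0 to 96, with a median of 6. Their median was 0.0264% of M2 reads, against 0.0290% for the members with a clear trace. The order was the opposite in mouse 2, with 0.0296% and 0.0290%. The largest was barcode B of mouse 1 with 0.0942%. In mouse 3 a single member had 0 reads in all 7 other libraries, with 2522 M2 reads or 0.0220%, and it is printed because no other member was free of reads elsewhere.
Mouse 3 member with 0 reads elsewhere: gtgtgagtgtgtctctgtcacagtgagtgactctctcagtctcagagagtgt

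Among the leading members of mouse 1, traces differed from barcode to barcode. Barcode A, the largest of all, held 0.153% of M2 reads (95% Wilson interval 0.151% to 0.155%), with 994 Ccr2hi reads (0.00837%), 17 Ccr2lo, 8 M1, 8 monocyte, 6 neutrophil, 15 B cell and 12 T cell reads. Barcode B held 0.0942% of M2 reads, with 9 Ccr2hi reads, 1 Ccr2lo, 2 M1, 5 monocyte, 3 neutrophil, 4 B cell and 3 T cell reads. Outside M2 macrophages of mouse 1, barcode A was thus clearly seen in Ccr2hi macrophages alone, and barcode B in none of the mouse's other populations. In mouse 2 the sequence of barcode A held 0.0570% of Ccr2lo, 0.0482% of Ccr2hi and 0.000108% of M2 reads. Barcode C held 0.0847% of M2 reads, with 762 Ccr2hi reads and 1160 Ccr2lo reads (0.00844%) and at most 6 reads in the other 5 libraries. Barcode D held 0.0807% of M2 reads, with 510 Ccr2hi, 6 Ccr2lo, 2 M1, 3 monocyte, 4 neutrophil, 37 B cell and 369 T cell reads. Barcode E held 0.0651% of M2 reads, with 1173 Ccr2hi reads (0.00988%), 928 Ccr2lo, 1042 M1, 2 monocyte, 1 neutrophil, 5 B cell and 1 T cell reads. Barcode E came just under the upper bound in Ccr2hi macrophages and was the only one of the 5 with a clear trace in M1 macrophages, while barcode D was the only one with a clear trace in blood.

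In mouse 2, 3 of the 5 leading members had no clear trace. Barcode A held 0.100321% of M2 reads, with 685 Ccr2hi reads, 752 Ccr2lo reads, 8 M1, 3 monocyte, 3 neutrophil, 4 B cell and 4 T cell reads. Barcode B held 0.0929% of M2 reads, with 3 Ccr2hi, 6 Ccr2lo, 3 M1, 3 monocyte, 5 neutrophil, 5 B cell and 6 T cell reads. Barcode C held 0.0879%, with 3 Ccr2hi, 2 Ccr2lo, 2 M1, 2 monocyte, 2 neutrophil, 4 B cell and 3 T cell reads. Barcodes B and C thus had nearly the M2 level of barcode A and none of its cardiac trace. Barcode D held 0.0393% of M2 reads, with 890 Ccr2hi and 485 Ccr2lo reads and at most 6 reads in the other 5 libraries. Barcode E held 0.0373%, with at most 3 reads in any other library. The step from barcode C to barcode D, 13843 against 6185 M2 reads, parted the 3 largest members of mouse 2 from the rest.

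In mouse 3 the leading members were closer in size. Barcode A held 0.0866% of M2 reads, with 443 Ccr2hi reads, 1109 Ccr2lo reads (0.00873%), 3 M1, 0 monocyte, 0 neutrophil, 4 B cell and 5 T cell reads. Barcode B held 0.0742%, with 432 Ccr2hi, 557 Ccr2lo, 3 M1, 1 monocyte, 1 neutrophil, 1 B cell and 2 T cell reads. Both were traced in the 2 cardiac subsets. Barcode C held 0.0704%, with 708 M1 reads (0.00559%), 0 Ccr2hi and 2 Ccr2lo reads, and at most 4 reads in a blood library. Barcode C was clearly seen in the kidney alone and was 1 of the 2 members with a trace in M1 macrophages and nowhere else. Barcode D held 0.0649%, with 915 Ccr2lo reads (0.00721%), 0 Ccr2hi and 0 M1 reads and at most 2 reads in blood. Barcode E held 0.0600%, with 425 Ccr2hi and 6 Ccr2lo reads, 1 M1 read and at most 4 reads in blood. Barcodes D and E were each traced in only 1 of the 2 cardiac subsets. Across the 15 leading members the M2 level was 5.48 to 18.8 times the highest level elsewhere in the 11 that had a clear trace. Over all members the lowest such ratio was 2.20, in mouse 2, and 50 of the 158 were under 4-fold.

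The same bounds were applied to each of the other 7 populations. M2 macrophages had 52.7 ± 19.1 restricted barcodes per mouse, against 29.3 ± 7.37 in Ccr2lo, 25.3 ± 2.89 in Ccr2hi, 11.7 ± 5.13 in B cells, 3.33 ± 3.51 in T cells, 0.667 ± 1.15 in monocytes, 0.333 ± 0.577 in neutrophils and 0 in M1 macrophages (SD, n = 3 each). Mouse 2 was the exception to a higher count in M2 macrophages, with 31 in M2 and 32 in Ccr2lo macrophages. Over the 3 mice the restricted barcodes were 6.61% of those at 0.02% or more in M2 macrophages, 3.91% in B cells, 3.58% in Ccr2lo, 3.37% in T cells, 3.33% in Ccr2hi macrophages, 0.59% in monocytes and 0.408% in neutrophils. In T cells of mouse 2 they were 6.25%, above the 4.84% of M2 macrophages in that mouse. The counts were not tested, since the values that chose the members set them.

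The comparison of M2 with cardiac macrophages turned with the populations that were bounded. With the other subset of the same organ left unbounded, a setting that was added once the values were known, M2 macrophages had 63, 32 and 68 restricted barcodes in mice 1, 2 and 3, Ccr2lo macrophages had 103, 107 and 71, and Ccr2hi macrophages had 93, 98 and 71. The order was then the opposite, with a lower count in M2 than in either cardiac subset in each mouse. As a percentage of the barcodes at 0.02% or more it was 6.68% ± 1.60 in M2, 11.6% ± 3.10 in Ccr2lo and 11.7% ± 2.59 in Ccr2hi macrophages (SD, n = 3 each). Leaving M1 macrophages unbounded thus added only 5 members, while leaving a cardiac subset unbounded for the other raised the restricted barcodes there to 281 and 262, against 88 and 76. The populations left unbounded were unlike. Over the 3 mice M1 macrophages held 231 barcodes at 0.02% or more, against 2285 in Ccr2hi and 2456 in Ccr2lo macrophages. M2 macrophages also stayed bounded by both cardiac subsets. The part of these differences in the order was not tested.

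The barcodes of M2 macrophages that did not meet the rule were kept out mostly by the heart. Of the 2231 non-members at 0.02% or more of M2 reads, 2200 (98.6%) reached 0.01% in a cardiac population, 1278 (57.3%) did so in the heart and in none of the other 5 populations, and 864 (38.7%) reached it in blood. In M1 macrophages 366 (16.4%) did, but M1 macrophages alone kept out only 5. A single population kept out 320 barcodes, which was Ccr2lo macrophages for 186, Ccr2hi macrophages for 107, B cells for 21, M1 macrophages for 5 and monocytes for 1. Ccr2lo and Ccr2hi macrophages also held more barcodes at 0.02% or more, 2456 and 2285, than B cells with 894 or any of the remaining 4 populations. The part of this in the counts was not tested.

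The members of a mouse were chosen from the libraries of that mouse, and the same sequences can be compared between populations of the other 2 mice. For each library the shares of the barcodes restricted in the other 2 mice were summed. The sum was 0.237%, 0.148% and 0.381% in M2 libraries of mice 1, 2 and 3, against a median of 0.0540% in the 21 other libraries, which ranged from 0.00118% to 0.271%. The means were 0.255% ± 0.118 in M2 (SD, n = 3) and 0.100199% ± 0.0990 in the other libraries (SD, n = 21), a difference of 0.155 percentage points (exact permutation p = 0.0316, two-sided, over 2024 assignments). Adjusted by the Benjamini-Hochberg method over the 2 tests made, the exact permutation p was 0.0632, which did not pass 0.05. These assignments ignored which mouse a library came from, although the 21 other libraries came from the same 3 mice. With labels permuted within mice, the unadjusted exact permutation p was 0.0469. The sums include the 2 sequences that were members in both mouse 1 and mouse 2 and so were high in M2 macrophages of both by the rule, and without them the difference was 0.119 percentage points (exact permutation p = 0.0879). The M2 library had the highest sum in mouse 3 only: B cells with 0.271% were above it in mouse 1, and Ccr2hi with 0.259%, Ccr2lo with 0.225% and neutrophils with 0.151% were above it in mouse 2. With macrophage populations only, the difference was 0.1002 percentage points (exact permutation p = 0.182). Without mouse 1, 2 or 3 it was 0.117, 0.0737 and 0.0417 percentage points (exact permutation p = 0.0667, 0.267 and 0.483). Whether M2 barcodes that were not members show such a difference was not tested, so it cannot be called a trait of the members.

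By population the sums of the other mice's members averaged 0.255% ± 0.118 in M2, 0.216% ± 0.0523 in Ccr2hi, 0.213% ± 0.0138 in Ccr2lo, 0.125% ± 0.126 in B cells, 0.0548% ± 0.0832 in neutrophils, 0.0482% ± 0.0522 in monocytes, 0.0356% ± 0.0588 in M1 macrophages and 0.00849% ± 0.00562 in T cells (SD, n = 3 each). M2, Ccr2hi and Ccr2lo values overlapped. The M2 mean includes the 2 sequences that were members in both mouse 1 and mouse 2, and so were high in M2 macrophages of both by the rule. The percentage of these barcodes with at least 1 read was 76.6% ± 5.07 in M2 (SD, n = 3) and 57.0% to 80.2% on average in the other populations. The sums thus rested on few of the 98, 127 and 89 sequences scored in mice 1, 2 and 3. The bound of 0.01% was reached 15 times in M2, 14 times in Ccr2hi, 12 times in Ccr2lo and 3 times in B cells. It was reached 2 times each in monocytes and neutrophils, 1 time in M1 macrophages and 0 times in T cells. The M2 count includes the same 2 sequences, which the rule kept under 0.01% in the other populations of both mice. Matching sums and counts are not given for the other M2 barcodes, so the order of populations cannot be called a trait of the members. M2, Ccr2hi and Ccr2lo libraries also held the most barcodes at the lower bound, 2389, 2285 and 2456 over all mice. The other populations held from 231 in M1 macrophages to 894 in B cells. The part of these numbers in the order was not tested.

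Of the 156 different sequences 19 reached 0.01% in another mouse, found as 21 combinations of a member and a second mouse. How often the other M2 barcodes did so is not given. In 15 of the 21 the second mouse had 0.01% or more in M2 macrophages, and in 6 it did not. In 13 at least 2 populations reached it. The 15 include the 2 sequences that were members in both mouse 1 and mouse 2, each counted in both directions. The rule placed these at 0.02% or more in M2 macrophages and under 0.01% elsewhere in both mice. In 12 of the 21 the highest share in the second mouse was above the member's own M2 share. In each mouse the member with the highest share elsewhere is printed, because its level there can be set beside its level at home.
Mouse 1 member found in mouse 2: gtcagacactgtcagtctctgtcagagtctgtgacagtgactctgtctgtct
Mouse 2 member found in mouse 3: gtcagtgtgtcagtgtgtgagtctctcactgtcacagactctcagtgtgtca
Mouse 3 member found in mouse 1: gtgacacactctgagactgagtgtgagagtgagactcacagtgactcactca
The first held 0.0245% of M2 reads in mouse 1 and at most 24 reads in its other libraries there. In mouse 2 it held 0.0181% of M2, 0.102% of M1, 0.0302% of Ccr2hi, 0.0483% of Ccr2lo, 0.1001% of monocyte, 0.143% of neutrophil and 0.00363% of B cell reads. It was thus highest in blood myeloid cells and M1 macrophages of that mouse. The second held 0.0309% of M2 reads in mouse 2, and in mouse 3 it held 0.219% of M2, 0.0789% of Ccr2lo and 0.0458% of Ccr2hi reads and stayed below 0.001% in M1 macrophages and blood. The third held 0.0209% of M2 reads in mouse 3, and in mouse 1 it held 0.0677% of M2, 0.1195% of Ccr2hi, 0.0777% of Ccr2lo, 0.261% of B cell, 0.0372% of monocyte, 0.0110% of neutrophil and 0.00695% of T cell reads.

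The 2 sequences that met the rule in both mouse 1 and mouse 2 are printed because no other member recurred as restricted.
First recurring member: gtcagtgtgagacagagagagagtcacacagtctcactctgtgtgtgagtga
Second recurring member: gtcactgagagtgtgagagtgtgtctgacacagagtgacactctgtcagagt
The first held 0.0323% of M2 reads in mouse 1 and 0.0301% in mouse 2, and in Ccr2lo macrophages it held 0.00997% in mouse 1 and 3 reads in mouse 2. In Ccr2hi macrophages it held 0.00728% in mouse 1 and 0.00605% in mouse 2, and in B cells 929 reads in mouse 1 and 10 in mouse 2. The second held 0.0297% of M2 reads in mouse 1 and 0.0217% in mouse 2. It held 0.00417% of Ccr2hi reads in mouse 1 and 0.00685% in mouse 2, and in Ccr2lo macrophages 893 reads in mouse 1 and 2 reads in mouse 2. In both mice both barcodes were therefore traced in Ccr2hi macrophages. Whether members recurred between mice more or less often than other M2 barcodes was not tested.

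Breaks of the barcode design were found in members and in other M2 barcodes. At least 1 break was found in 19 of the 158 members, 17 with 1 break and 2 with 2. The percentage was 10% in mouse 1, 16.1% in mouse 2 and 11.9% in mouse 3, a mean of 12.7% ± 3.13, against 9.66% ± 0.368 of the other barcodes at 0.02% or more of M2 reads (SD, n = 3 each). The members were higher in 3 of 3 mice, by 3.03 ± 2.93 percentage points (exact sign-flip permutation p = 0.25, two-sided, the smallest possible with 3 mice, and 0.25 after adjustment over the 2 tests). The other barcodes had 9.71%, 10% and 9.27% in mice 1, 2 and 3. The difference was only 0.292 percentage points in mouse 1, on 6 of 60 members, and largest in mouse 2 with 6.13, on 5 of 31. G made up 27.1% and C 22.6% of the members' bases, against 27.3% and 22.5% in the other M2 barcodes, and A made up 23.5% and T 26.8%, against 23.1% and 27.1%.

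The distances of the members from each other and from abundant barcodes were also taken. The design allows either G or C, or A or T, at a position, so unrelated barcodes also differ at many positions. The closest 2 members of a mouse differed at 14 positions in mouse 1, at 16 in mouse 2 and at 10 in mouse 3, and the median difference was 26 of 52 positions in each mouse. Against barcodes at least 10 times as abundant in the same M2 library, the smallest difference of a member was 11 positions and the median 18. None of the 158 lay within 3 positions of such a barcode. The same distances are not given for the other M2 barcodes, so they are not a trait particular to the members.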

How the data were processed

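The deposited files give, per the file headers, 1 library each, as whole-number read counts per barcode of 52 bases. The counts are not normalised. Per the labels' protocols, barcodes were amplified from genomic DNA in 18 PCR cycles and indexed in 9 to 11 more. Trimming, filtering and counting by the authors are not given in the sources used here. Groups and mouse numbers came from sample titles. Libraries of one number were taken as one animal. M2 libraries overlapped (sum of the smaller shares) by 0.423 on average with other populations of the same number in 21 pairs and by 0.0160 with those of another in 42, so the numbers pair the samples. No 2 of the 24 libraries were alike within sampling noise (smallest chi-square over degrees of freedom 15.3 in 276 pairs).

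Counts were divided by the library total, which was 6808221 to 15745444 reads. Members, bounds and lists were chosen with earlier results of these data known. The barcodes named were in each mouse the 5 largest members, those nearest to each bound, a member with 0 reads elsewhere, the member highest in another mouse, and recurring members. Level and pattern differences were tested by exact permutation over libraries or mice (Python 3.11.15, numpy 2.4.6), and the other-mouse test used, for each library, members chosen in the other 2 mice. Because the rule fixes the M2 contrast, no count model was fitted, and edgeR 4.0.16 (R 4.3.3) gave only TMM scaling factors for an alternative. Scripts were tested on simulated data. Nothing shows that p-values reflect more than the spread between these 3 animals and their populations. Alternatives changed depth, error merging, low counts, pattern, both bounds, scaling and the mice used.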

Additional observations from a re-analysis of the deposited data

How the results depend on the processing

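The number of restricted barcodes followed the bounds. It averaged 159.7, 7.33 and 0.667 per mouse with 0.01%, 0.05% and 0.1% as the lower bound, and 16, 22 and 127 with 0.001%, 0.005% and 0.02% as the upper bound. As a percentage of M2 barcodes these settings gave 13.9%, 1.74%, 0.363%, 2.01%, 2.72% and 15.7%, and as a percentage of M2 reads 3.29%, 0.534%, 0.0845%, 0.537%, 0.761% and 4.68%. TMM scaling, whose factors ran from 0.280 to 2.55, gave 33.3 barcodes per mouse and 0.996% of reads. Thinning, merging errors, removing barcodes under 10 reads, keeping the alternating pattern only, removing trace from other mice and leaving M1 macrophages unbounded gave 51 to 54.3 barcodes per mouse. Leaving out 1 mouse gave 45.5 to 63.5 barcodes, 5.70% to 7.30% of M2 barcodes, 1.57% to 2.18% of M2 reads and 11.0% to 14.0% off the pattern. The percentage off the pattern was 0% with a lower bound of 0.1%, which left 2 members, and 9.13% with an upper bound of 0.001%.

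The difference between M2 and other libraries in the other mice's members kept an unadjusted p under 0.05 in 8 of 20 alternatives. With the mouse as a replicate block, labels permuted within mice, the 0.155 percentage points had an exact permutation p of 0.0469. The unadjusted exact permutation p was not under 0.05 with a lower bound of 0.05% (difference 0.0321 percentage points). Nor was it with upper bounds of 0.001%, 0.005% and 0.02% (0.0732, 0.0732 and 0.358) or TMM (0.0759). The same held for the percentage with at least 1 read (6.13 percentage points) and members of 1 mouse only (0.119). It also held for macrophages only (0.1002) and each mouse left out (0.0417 to 0.117). The difference turned to -0.00501 with a lower bound of 0.1%. The cause was not tested. How far small barcodes were missed because few cells were sorted was not tested.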

Other observations

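The 19 members off the alternating pattern held 21 breaks, and each of the 21 was a T at an odd position, where the design has G or C. The other barcodes at 0.02% or more of M2 reads held 227 breaks, of which 205 (90.3%) were T, 12 were A, 6 were C and 4 were G. Barcodes C and D of mouse 2 are examples among the leading members, with the T at position 33 in C and at position 41 in D.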
